A study of Mus musculus with 4 samples.

Results

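Ribosome footprints were examined on 10 genes of cytosolic translation elongation and termination, called the factors here, in steps where eIF5A also acts. The genes were Eef1a1, Eef1a2, Eef1b2, Eef1d, Eef1g, Eef2, Eef2k, Etf1, Gspt1 and Abce1, chosen by name and found as 10 of the 55573 genes in the Ribo-seq table. Ribo-seq sequences the mRNA fragments that ribosomes shield from a nuclease, so a gene's value reflects both how much mRNA it has and how many ribosomes sit on it, and these 2 parts cannot be told apart here. In bulk cells, fewer cells of a type and less RNA per cell cannot be told apart either.

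The 4 libraries came from hind-limb muscle cells of 3-week-old mice, sampled at culture day 2. The study calls these cells primary myoblasts, the proliferating progeny of satellite cells. All cells were grown with FGF (10 µg/ml) and treated with cycloheximide (100 µg/ml), which halts elongating ribosomes, for 10 minutes according to the sample labels and for 1 minute according to the series design. The 2 KO libraries carry the genotype eIF5A knockout, which the study made as Pax7 CreERT2/+;eIF5A f/f mice given tamoxifen. The 2 WT libraries came from controls that the study describes in places as Pax7 CreERT2/+ and in places as Pax7 +/+;eIF5A f/f, so it is not settled whether the control cells carried the Cre or the floxed allele. The Pax7-driven Cre acts in cells that express Pax7, and nothing states that the libraries of a group came from separate animals, so the p-values measure the spread between these libraries, which may be technical.

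Each round of elongation starts when eEF1A, loaded with GTP, brings an aminoacyl-tRNA to the ribosome. The eEF1B complex then reloads eEF1A with GTP, and eEF2 moves the ribosome along by a codon. eIF5A helps the ribosome form peptide bonds at difficult sequences, prolines above all, and assists release at stop codons. At a stop codon eRF1 and the GTPase eRF3 free the finished protein, and ABCE1 splits the ribosome into its subunits for reuse.

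Between 642429 and 704006 reads per library were assigned to genes. Protein-coding genes took 41.5% and 33.9% of them in WT and 65.4% and 59.2% in KO, which left 217651 to 269143 protein-coding reads in WT and 385091 to 460099 in KO. This share moved with the groups, and its part in the results was not tested beyond rescaling to protein-coding reads. The targeted gene Eif5a did not separate the groups, with 34.9 and 65.2 RPKM in WT and 60.3 and 59.4 in KO (RPKM is reads per kilobase of gene length, on the deposited library scale), so KO is used here as the libraries' label. Summed RPKM of 9 myoblast markers was 266 and 223 in WT and 134 and 145 in KO, that of 9 fibroblast markers 469 and 273 in WT and 785 and 351 in KO, that of 7 endothelial markers 154 and 167 in WT and 173 and 168 in KO, and that of 7 immune markers 33.4 and 42.3 in WT and 32.3 and 37.7 in KO. The largest single contributors to the first 3 sums were Myod1, Dcn and Cdh5. By gene, 7 of 9 myoblast markers had lower values in KO (5 without overlap, median log2 difference -1.03), 7 of 9 fibroblast markers higher values (3 without overlap, median 0.51) and 6 of 7 endothelial markers higher values (5 without overlap, median 0.35), where 20.1% of all genes tested lay higher without overlap and 20.3% lower. Of the defining markers, Myf5 was listed at 0 in KO replicate 2, Ptprc in WT replicate 2 and KO replicate 2, Csf1r in WT replicate 2 and Itgam in every library. The part of these markers in the results was not tested.

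No elongation or termination factor passed the test between KO and WT, and 5 of them lay higher in both KO libraries than in both WT libraries. A mean of at least 1 RPKM over the 4 libraries was required for testing, which 9 of the 10 genes and 11363 genes in all met. Eef1a2 did not. With limma and Benjamini-Hochberg adjustment over the 11363 genes, 0 of the 9 had an adjusted p under 0.05, where 0.106% of all genes tested did. At an unadjusted p under 0.05 the count was also 0 of 9, beside 7.32% of all genes, and voom on the recovered reads likewise called 0 of 9.

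Both KO libraries lay above both WT libraries for 5 of the 9 genes (Eef1d, Eef1g, Etf1, Gspt1 and Abce1), beside 20.1% of all genes tested and 22.4% of the protein-coding genes tested. For 1 gene, Eef2, both KO libraries lay below, beside 20.3% of all genes and 19.3% of the protein-coding genes. Of the 9 log2 differences 6 were above 0, beside 50.0% of all genes and 53.1% of the protein-coding genes. The median log2 difference over the 9 genes was 0.39, beside a median of 0.05 over the 9877 protein-coding genes tested. The count of 5 was 8 when values were scaled to total reads, where 41.4% of all genes did the same, and 3 when scaled to protein-coding reads, where 16.5% did. Scaling to total reads also moved the median of all genes to 0.48, and that of the 9 genes to 0.97. The median of the 9 was 0.15 after a correction for GC content and length, 0.11 without WT replicate 1 and 0.19 without KO replicate 2.

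**Figure D1:**
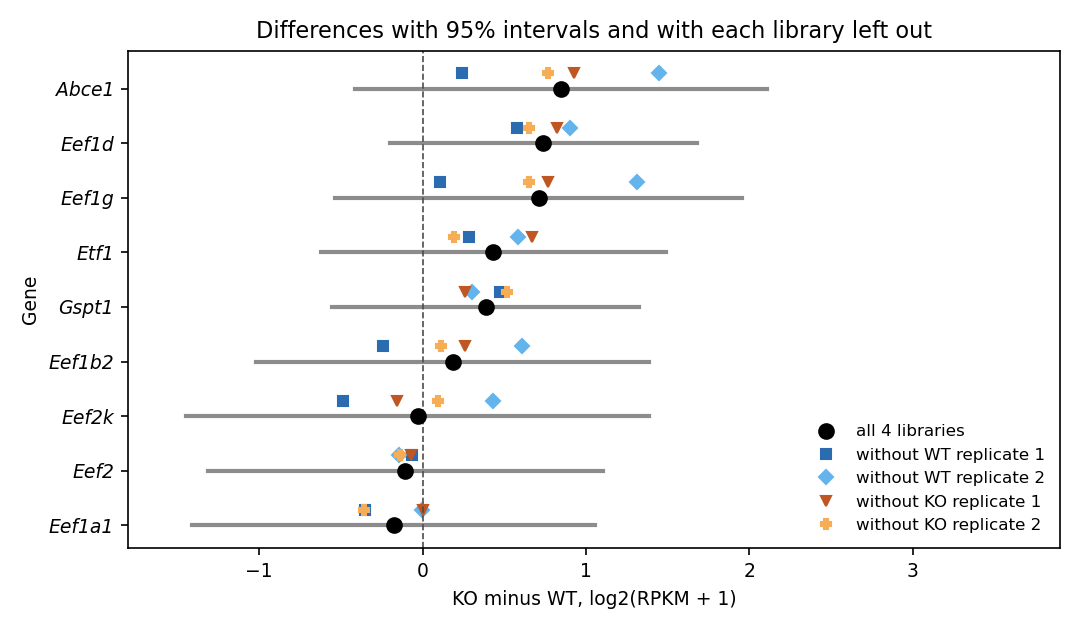
Difference between KO and WT on the log2(RPKM + 1) scale for the 9 genes tested. Black points are the fit to all 4 libraries with 95% intervals from limma (grey lines), and coloured symbols above each line are fits with a single library left out. Every interval crosses 0, and for Abce1 and Eef1g the value without WT replicate 1 is the nearest to 0.

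The footprint levels of the 10 genes spanned from Eef2, at a mean of 295 RPKM over the 4 libraries, to Eef1a2, at 0.446. Eef1a1 followed Eef2 at 239 RPKM, then Eef1b2 at 67.8, Etf1 at 38.0, Gspt1 at 16.1, Abce1 at 15.8, Eef1d at 13.9, Eef1g at 11.6 and Eef2k at 1.65. Neighbours in this order had library ranges that did not overlap at 3 steps, which were Eef1a1 above Eef1b2, Etf1 above Gspt1 and Eef1g above Eef2k. At the other steps the ranges overlapped, although Eef2 was above Eef1a1 and Eef1b2 above Etf1 within each of the 4 libraries.

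**Figure D2:**
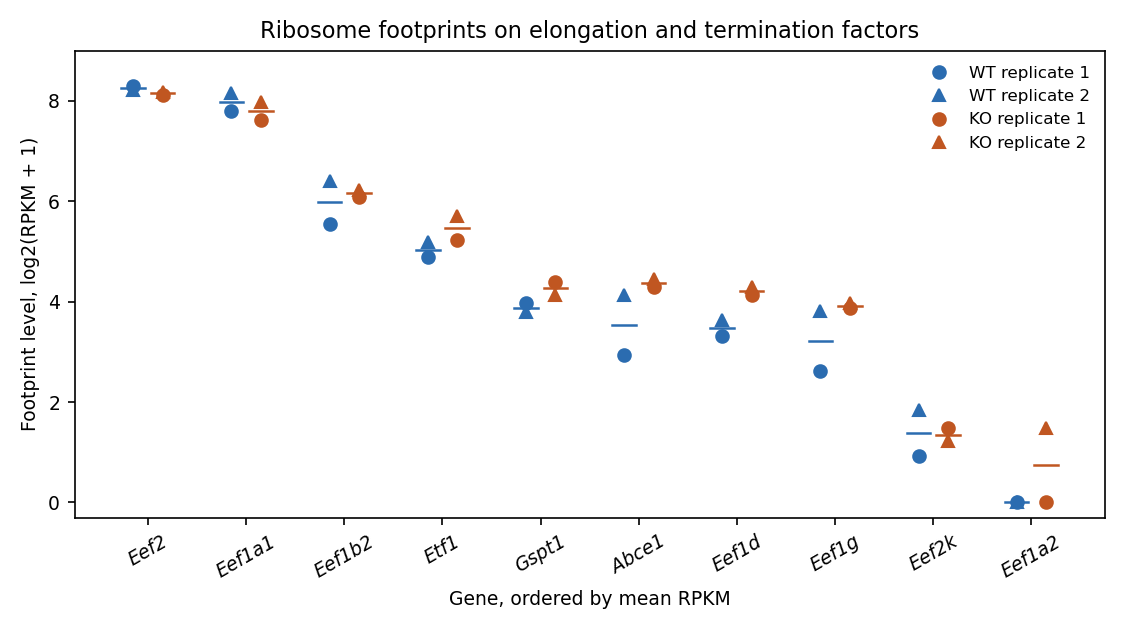
Footprint level, log2(RPKM + 1), of the 10 genes in each of the 4 libraries, ordered by mean RPKM. Circles are replicate 1 and triangles replicate 2, WT in blue and KO in orange, and the short lines are group means of 2 libraries. Eef2 and Eef1a1 stand well above the rest, Eef1a2 is at 0 in 3 libraries, and Abce1 and Eef1g have widely spaced WT libraries.

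RPKM divides by the whole deposited gene length, of which the coding sequence is a changing part. The longest coding sequence took up 77.5% of the gene length for Eef2 and 55.7% for Eef1a1, but 26.8% for Eef1b2. Per kilobase of coding sequence on the same library scale, Eef1a1 came first at 430 and Eef2 second at 380. Within each library the ratio of Eef2 to Eef1a1 per kilobase of coding sequence was 1.01 and 0.750 in WT and 1.02 and 0.826 in KO. By this measure the order of the leading pair was not the same in every library.

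Taken over all 10 genes, the factors held 0.452% (95% Wilson interval 0.428% to 0.478%) and 0.507% (0.478% to 0.537%) of protein-coding reads in the WT libraries. In KO they held 0.413% (0.395% to 0.432%) and 0.496% (0.474% to 0.519%). The groups overlapped, at 0.479% ± 0.0386 in WT and 0.455% ± 0.0586 in KO (SD, n = 2). Without Eef2 and Eef1a1, the other 8 genes held 0.0940% and 0.139% in WT and 0.135% and 0.161% in KO, which also overlapped. These intervals cover counting error only, since reads amplified by PCR are not independent molecules.

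Eef1a1 (ENSMUSG00000037742, chr9:78478449-78489151, minus strand, GRCm38) encodes the widely expressed form of eEF1A. It had 223 and 285 RPKM in WT and 196 and 253 in KO, from 335, 335, 444 and 509 reads. The groups overlapped, with means of 254 ± 44.1 in WT and 225 ± 39.9 in KO (SD, n = 2). The log2 difference, KO minus WT, was -0.18 (95% interval -1.41 to 1.06, adjusted p = 0.919 with limma), and it was 0.44 when scaled to total reads.

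Eef1a2 (ENSMUSG00000016349, chr2:181147653-181157014, minus strand) encodes the form that replaces eEF1A1 in mature muscle fibres and neurons. It had 0 reads in both WT libraries and in KO replicate 1, and 3 reads in KO replicate 2. Of the reads of the 2 forms together, Eef1a2 therefore took 0 of 335 in each WT library, which allows a share of up to 0.896% by a limit of 3 reads (Wilson upper limit 1.13%). It took 0 of 444 in KO replicate 1, which allows up to 0.676% by the same limit (Wilson 0.858%), and 3 of 512 in KO replicate 2, a share of 0.586% (95% Wilson interval 0.199% to 1.71%). All of these lie at or under 3 reads, so no fold is given.

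The 2 forms are close enough in protein, at 92.2% identity over 462 and 463 residues, to raise the question whether footprints can tell them apart. Their coding sequences were 80.0% identical and shared 0 windows of 28 nt, about the length of a footprint, so no error-free coding read of that length matches both. The first 60 coding bases are shown for this reason, from exon 2 of each gene in GENCODE vM21 (GRCm38), with the 11 bases that differ between the 2 genes in capitals. The Eef1a1 stretch is chr9:78480595-78480654 and the Eef1a2 stretch chr2:181155347-181155406, both on the minus strand and read 5′ to 3′.
Eef1a1: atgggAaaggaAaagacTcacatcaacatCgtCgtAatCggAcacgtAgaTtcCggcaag
Eef1a2: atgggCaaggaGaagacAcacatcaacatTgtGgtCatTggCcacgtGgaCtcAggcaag

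The eEF1B complex exchanges GDP for GTP on eEF1A. Its catalytic subunits are encoded by Eef1b2 and Eef1d and its scaffold subunit by Eef1g. Eef1d lay higher in both KO libraries, Eef1g did so by a narrow margin, and Eef1b2 overlapped.

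Eef1b2 (ENSMUSG00000025967, chr1:63176825-63180486, plus strand) had 45.9 and 83.8 RPKM in WT and 67.1 and 74.3 in KO, from 70, 100, 154 and 152 reads. Both KO libraries lay between the 2 WT libraries, which differed by 1.83-fold. Its log2 difference of 0.18 (95% interval -1.02 to 1.39, adjusted p = 0.914 with limma) became -0.24 without WT replicate 1.

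Eef1b2 was also the single gene of the 10 with 3 prolines in a row, the kind of run at which eIF5A is known to help. The run covers codons 44 to 46 of 225. The other 9 genes had at most 2 prolines in a row, and 20.1% of 21442 protein-coding genes had a run of at least 3. The coding stretch around the run, bases 109 to 159 in exon 2, lies at chr1:63177782-63177832 on the plus strand of GRCm38 (GENCODE vM21), and the proline codons are in capitals. Values are summed over whole genes, so ribosome occupancy at the run was not measured.
Eef1b2: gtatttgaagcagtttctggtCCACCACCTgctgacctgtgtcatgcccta

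Eef1d (ENSMUSG00000055762, chr15:75894205-75909556, minus strand) had 8.95 and 11.5 RPKM in WT and 16.5 and 18.7 in KO, from 35, 35, 97 and 98 reads. Each KO library was above each WT library, and the nearest pair was 1.44-fold apart, the widest such gap among the 9 genes. The means were 10.2 ± 1.77 in WT and 17.6 ± 1.57 in KO (SD, n = 2), a ratio of 1.72. The log2 difference was 0.74 (SE 0.38, 95% interval -0.20 to 1.68) with an adjusted p of 0.680 in limma, and it was 1.07 after a correction for GC content and length.

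Eef1g (ENSMUSG00000071644, chr19:8967041-8978479, plus strand) had 5.10 and 13.1 RPKM in WT and 13.6 and 14.8 in KO, from 8, 16, 32 and 31 reads. The lower KO library was 1.04-fold above WT replicate 2, while the 2 WT libraries differed by 2.56-fold. The fitted log2 difference was 0.71 (95% interval -0.53 to 1.95, adjusted p = 0.706 with limma), and 0.11 without WT replicate 1.

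Relative to Eef1a1 in the same library, a ratio that a single scaling factor per library cannot move, the 3 eEF1B genes were higher in both KO libraries than in both WT libraries, as were 25% of all genes tested and 27.9% of the protein-coding genes. The 3 ratios share Eef1a1, whose own difference was -0.18, so they are not independent. Eef1d stood at 4.01% of the Eef1a1 RPKM in each WT library and at 8.39% and 7.40% in KO. Eef1g stood at 2.29% and 4.58% in WT and at 6.91% and 5.84% in KO. Eef1b2 stood at 20.6% and 29.4% in WT and at 34.2% and 29.4% in KO, where the nearest pair of libraries was all but equal. The ratios differed on the log2 scale by 0.97 for Eef1d, 0.97 for Eef1g and 0.37 for Eef1b2. With each library left out in turn, they ran from 0.88 to 1.06 for Eef1d, from 0.47 (without WT replicate 1) to 1.47 (without WT replicate 2) for Eef1g and from 0.11 (without WT replicate 1) to 0.62 (without WT replicate 2) for Eef1b2. Quantile normalization, which is no single factor, put the difference at 0.27 for Eef1b2 and 0.39 for Eef1a1. The exact two-sided permutation test gave p = 0.333 for each, the smallest that 2 libraries against 2 can give.

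**Figure D3:**
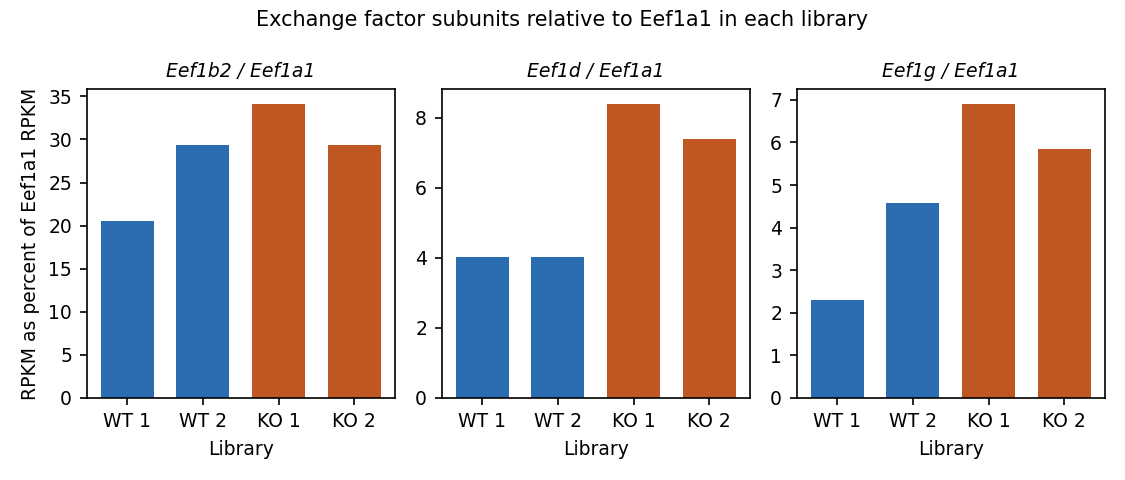
RPKM of Eef1b2, Eef1d and Eef1g as a percentage of the Eef1a1 RPKM of the same library. Bars are single libraries, WT in blue and KO in orange, and each panel has its own axis from 0. The Eef1d bars are equal in the 2 WT libraries and higher in both KO libraries.

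The level of Eef1g is uncertain because of processed pseudogenes, copies of its mRNA elsewhere in the genome. Of its 1287 coding windows of 28 nt, 95.9% also occur in at least 1 of 12 pseudogenes, whose own values summed to 1 read in WT replicate 1 and 0 in the other libraries. The closest copy, Gm4366, holds 89.1% of the windows. The longest stretch of single-exon coding sequence in which no 28-nt window is found in another gene is bases 1197 to 1246 in exon 10, chr19:8977985-8978034 on the plus strand of GRCm38 (GENCODE vM21). It is shown because it differs from Gm4366 at the single base in capitals.
Eef1g: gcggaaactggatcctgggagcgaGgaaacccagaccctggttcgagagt

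Eef1a1 had the same limit, with 89.4% of its 1362 windows found in 23 pseudogenes. Those pseudogenes held 12 and 7 reads in WT and 24 and 20 in KO, against 335 to 509 on Eef1a1. The share was 31.6% for Eef2, 25.7% for Eef1b2, 19.2% for Eef1d, 18.5% for Gspt1, 15.5% for Abce1, 3.63% for Eef2k, 0.22% for Eef1a2 and 0 for Etf1. These shares, the coding lengths and the GC content rest on the longest coding sequence of each gene, which for Eef1d encodes 660 residues. Shorter coding sequences of a gene were not examined and could give other shares. How the counting treated reads with several matches is not given in the sources used here. If the reads had come from windows found in no other gene, Eef1g would move from rank 8 to rank 2 of the 10 at 570 reads per kilobase, behind Eef1a1 at 4143 and just above Eef2 at 563. The part of multiple matches in the order of levels was not tested further.

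**Figure D4:**
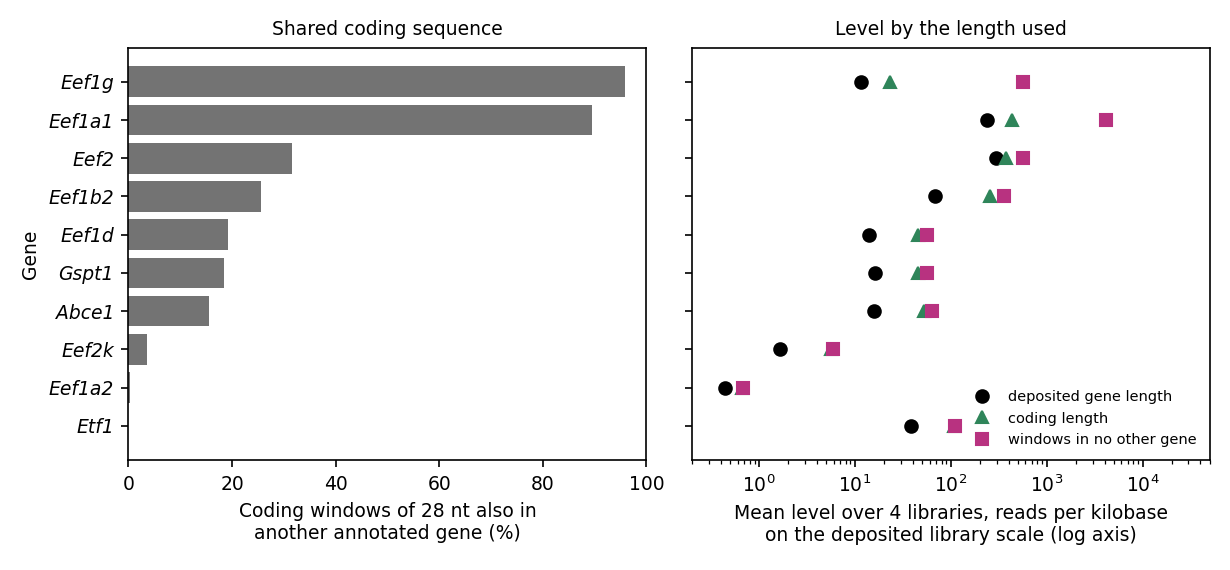
Left, the share of 28-nt coding windows of each gene that also occur in another annotated gene. Right, the mean level over 4 libraries in reads per kilobase on a log axis, divided by the deposited gene length (circles), the coding length (triangles) or the windows found in no other gene (squares). Eef1g, at 95.9% shared windows, and Eef1a1, at 89.4%, move furthest between the 3 lengths.

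Eef2 (ENSMUSG00000034994, chr10:81176631-81182498, plus strand) encodes the GTPase that drives translocation. It had 314 and 298 RPKM in WT and 278 and 291 in KO, from 629, 466, 838 and 780 reads, the most of the 10 genes. Both KO libraries lay below both WT libraries by a narrow margin, the nearest pair being 1.02-fold apart. The means were 306 ± 11.5 in WT and 284 ± 8.88 in KO (SD, n = 2). The log2 difference was -0.10 (95% interval -1.32 to 1.11, adjusted p = 0.957 with limma), and it was 0.51 when scaled to total reads and 0.64 after quantile normalization.

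Eef2k (ENSMUSG00000035064, chr7:120842831-120907450, plus strand) encodes the kinase that phosphorylates and inactivates eEF2. Its footprints were few, with 4 and 9 reads in WT and 12 and 8 in KO. In RPKM this was 0.896 and 2.58 in WT and 1.79 and 1.34 in KO, so that the KO libraries lay between the WT libraries. On the log2 scale the difference was -0.03 (95% interval -1.45 to 1.39, adjusted p = 0.991 with limma), and its sign changed with the pseudocount and in several other settings. As a share of Eef2 RPKM, Eef2k stood at 0.285% and 0.867% in WT and at 0.643% and 0.460% in KO, which overlapped (exact permutation p = 1.0).

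Termination needs eRF1, encoded by Etf1, which reads the stop codon, and eRF3a, encoded by Gspt1, which delivers it. Both genes had higher values in both KO libraries, and neither passed the test.

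Etf1 (ENSMUSG00000024360, chr18:34902785-34932007, minus strand) had 28.6 and 35.5 RPKM in WT and 36.6 and 51.4 in KO, from 64, 62, 123 and 154 reads. WT replicate 2 and KO replicate 1 were only 1.03-fold apart. On the log2 scale Etf1 differed by 0.43 (95% interval -0.62 to 1.49, adjusted p = 0.746 with limma). The difference was 0.085 once a trend with GC content and length was removed and 0.19 without KO replicate 2.

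Gspt1 (ENSMUSG00000062203, chr16:11219292-11254325, minus strand) had 14.7 and 12.9 RPKM in WT and 20.1 and 16.7 in KO, from 48, 33, 99 and 73 reads. The lower KO library was 1.14-fold above the higher WT library. The log2 difference was 0.39 (95% interval -0.55 to 1.33, adjusted p = 0.744 with limma), and 0.21 after the same correction for GC and length. Relative to Etf1, Gspt1 stood at 51.2% and 36.4% in WT and at 55% and 32.4% in KO, so the balance of the release factors overlapped between the groups (exact permutation p = 1.0).

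Abce1 (ENSMUSG00000058355, chr8:79683462-79711740, minus strand) encodes the ATPase that splits ribosomes after termination. It had 6.63 and 16.6 RPKM in WT and 18.7 and 21 in KO, from 24, 47, 102 and 102 reads. The 2 WT libraries differed by 2.51-fold, more than WT replicate 2 differed from either KO library. Abce1 had the largest fitted log2 difference, 0.85 (SE 0.51, 95% interval -0.41 to 2.11, adjusted p = 0.697 with limma), and it was 0.24 without WT replicate 1.

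For each of the 6 genes whose groups did not overlap the exact permutation test of log2 values gave p = 0.333, the smallest possible. It gave 0.667 for Eef1a1 and 1.0 for Eef1b2 and Eef2k. The intervals of the 9 log2 differences reached from -1.45 to 2.11. A p that misses the threshold therefore does not show that footprints on these genes were alike.

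Genes that modify, regulate or work beside the factors were split between the directions. Of 66 such genes in 6 lists, 65 were in the table and 57 were tested, of which 32 had a log2 difference above 0 and 25 below, with a median of 0.03. None passed the adjusted test in limma, and 1 had an unadjusted p under 0.05, beside 7.32% of all genes. Groups did not overlap for 10 upward and 10 downward, beside 20.1% and 20.3% of all genes. The lists were chosen with earlier results of these data known and support no direction on their own.

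Among 11 tested partners in elongation, which include the targeted gene Eif5a, 6 had higher and 5 lower values. The median of 0.32 was the value of Eif5a itself, and the median was -0.12 without WT replicate 1. Both KO libraries lay above WT for 3 of the 11 and below for 4, beside 20.1% and 20.3% of all genes, and these 7 are named after their values were seen. The upward 3 were the eEF1A methyltransferase genes Eef1akmt1, Eef1akmt2 and Eef1akmt4, with log2 differences of 1.93, 1.31 and 0.88 on 16, 17 and 6 reads. The downward 4 were Secisbp2, Eef2kmt, Tpt1 and Mettl13, another eEF1A methyltransferase gene, with differences of -0.76, -0.50, -0.21 and -0.18. Eefsec, which delivers selenocysteine, had 0.592 and 7.58 RPKM in WT and 6.30 and 7.96 in KO. Its WT libraries thus spanned most of the range seen, and the log2 difference was 1.13 (adjusted p = 0.703 with limma). Eef1e1, a synthetase complex protein related to the eEF1B subunits, had a difference of 0.80 on 31 reads in all, with 1.02 and 3.26 RPKM in WT and 5.42 and 3.04 in KO.

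Diphthamide is the modified histidine of eEF2, and the median over its 7 tested synthesis genes was 0.10. Dph2, which takes part in the first step, had 1.64 and 4.90 RPKM in WT and 3.27 and 8.99 in KO, with overlapping groups and a difference of 0.73. Dph6, the ligase of the last step, differed by 0.27 at 0.860 to 1.5 RPKM. The list's largest difference, on 15 reads and named after its value was seen, was -1.04 for Dph3, whose KO libraries lay below both WT libraries. Dph3 was the 1 of 7 genes lower without overlap and Dph6 the 1 of 7 higher, beside 20.3% and 20.1% of all genes.

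For 10 tested termination and recycling partners the median was 0.03. Trmt112, a subunit of the methyltransferase that modifies eRF1, had 12.1 and 5.16 RPKM in WT and 12.5 and 13.1 in KO, and Eif2d, which helps to clear the small subunit after termination, had 1.35 and 0.576 in WT and 1.5 and 2.01 in KO. Both had KO libraries above the WT libraries, by log2 differences of 0.62 and 0.51, and neither passed the test. Groups did not overlap upward for these 2 of 10 and downward for 2 of 10, near the 20.1% and 20.3% of all genes. The downward pair, named after their values were seen, were Pabpc1, which encodes the poly(A)-binding protein (-0.32 on 1181 reads), and Ogfod1 (-0.39).

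The 13 genes of stalled ribosome rescue had a median of -0.15, which was 0.086 without WT replicate 2 and 0.42 on total reads. Of the 13 values 5 were above 0 and 8 below. Groups did not overlap downward for 3 of 13, near the 20.3% of all genes, and upward for 0, beside 20.1%. Gtpbp2, a GTPase of the rescue pathway related to the eEF1A family, had 8.75 and 6.00 RPKM in WT and 1.87 and 3.97 in KO. Its log2 difference was -1.13 (unadjusted p = 0.0443, adjusted p = 0.672 with limma). Zfp598, the ubiquitin ligase that detects collided ribosomes, had 12.8 and 13.6 RPKM in WT and 3.11 and 8.58 in KO, with a difference of -1.18 (adjusted p = 0.675 with limma). In both genes each KO library lay below each WT library, and neither passed the adjusted test.

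Inputs to the eEF2 kinase had a median of 0.01 over 9 genes. Rps6kb1, the S6 kinase that inhibits the eEF2 kinase, had 1.92 and 1.47 in WT and 2.93 and 3.72 in KO, a difference of 0.68 without overlap. In this list 3 of the 9 genes lay higher without overlap and 0 lower, beside 20.1% and 20.3% of all genes.

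Mitochondria use their own factors, and over 7 of them the median was 0.04. Gfm1, the mitochondrial counterpart of eEF2, had 3.38 and 5.76 RPKM in WT and 12.0 and 7.0 in KO, a difference of 0.91 (adjusted p = 0.676 with limma). Tsfm, the mitochondrial exchange factor, differed by 0.60 with overlapping groups. Gfm1 was the 1 of 7 genes higher without overlap and 0 were lower, beside 20.1% and 20.3% of all genes.

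Set beside the other parts of the translation machinery, the elongation and termination factors had a median difference between those of the ribosomal proteins and the aminoacyl-tRNA synthetases. The median was 0.39 over the 9 factors, 0.48 over 34 initiation factors, 0.67 over 22 synthetases and -0.04 over 82 cytosolic ribosomal proteins. Without WT replicate 1 these medians were 0.11, 0.34, 0.35 and -0.26, and without KO replicate 1 that of the ribosomal proteins was 0.18. Both KO libraries lay above both WT libraries for 18 of the 34 initiation factors, 15 of the 22 synthetases and 11 of the 82 ribosomal proteins, beside 5 of the 9 factors and 20.1% of all genes. They lay below for 1 of the 34, 0 of the 22 and 19 of the 82, beside 1 of the 9 factors and 20.3% of all genes. No gene of these lists passed the adjusted test in limma. The differences between the lists were not tested.

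The gene with the smallest p in each list was Eif4e, which binds the mRNA cap, at 4.69 and 8.13 RPKM in WT and 16 and 15.9 in KO. For the synthetases it was Farsb, a subunit of the phenylalanine enzyme, at 9.50 and 17.8 in WT and 33.2 and 39.7 in KO. For the ribosomal proteins it was Rpl36a, at 38.1 and 29.5 in WT and 16 and 9.73 in KO. Their adjusted p-values in limma were 0.665, 0.660 and 0.660, so these too failed the adjusted test.

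**Figure D5:**
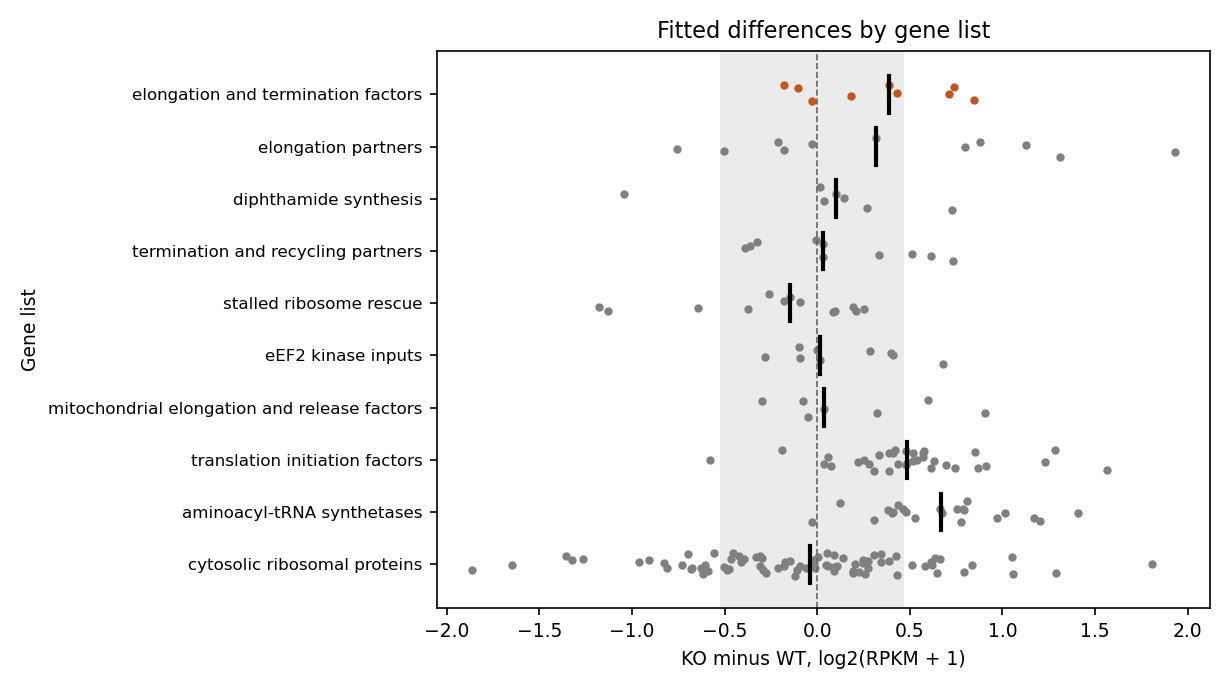
Fitted KO minus WT differences, log2(RPKM + 1), for the elongation and termination factors (orange) and 9 other gene lists (grey). Points are tested genes, black bars list medians, the dashed line the median of all 11363 genes tested and the shaded band their middle quartiles. The band shows the spread of single genes and is no yardstick for a median, and the points of the 9 factors run from -0.18 to 0.85.

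Many mRNAs of the translation machinery start with a C followed by a run of C and T bases, known as a 5′ terminal oligopyrimidine tract. A C followed by at least 4 bases that are C or T was looked for on the strand that reads like the mRNA, in RefSeq start-site windows of GRCm38.p6. These windows matched 7 of the 10 genes. None of the 7 had it at the annotated start, beside 3.01% of 27025 genes and 14 of 64 ribosomal protein genes (21.9%). Within 10 bases to either side 2 of the 7 had it, Eef1a1 and Abce1, beside 34.4% of all genes and 62.5% of the ribosomal protein genes. These counts describe the annotated starts and say nothing of the starts used in these cells. They do not show that any of these mRNAs lacks the tract.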

How the data were processed

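Ribo-seq libraries of cells that the study calls primary myoblasts (2 WT, 2 KO) were analysed. According to the study's methods and the labels, the authors removed low-quality, adapter, rRNA and tRNA reads, aligned single-end reads to mouse with TopHat2 and counted them per gene with HTSeq on Ensembl 97 models (GRCm38). Tool versions, strand and the handling of reads with several matches are not given in the sources used here. The deposited values are RPKM by the authors, 1 column per library, with no pooling.

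Multiplied by gene length, 100.0% of values gave whole reads (tolerance 0.01), and the implied library denominators (471136 to 906990) equalled median-of-ratios size factors times the geometric mean total, so these values cannot show a shift common to most genes. A count of 0 allows up to 3 reads. Genes whose mean RPKM reached 1 were fitted as log2(RPKM + 1) with limma 3.58.1 in R 4.3.3 (lmFit and eBayes with trend, two-sided, Benjamini-Hochberg over 11363 genes, threshold 0.05). Fold changes on this scale understate those of low genes. The script was tested on simulated data. Single values were tested by exact permutation.

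Coding sequences were the longest complete entry of each gene in GENCODE vM21, of the build of the files, where 99.7% of gene identifiers matched. The members and lists were chosen with earlier results of these data known. Partner genes were named if their unadjusted p was under 0.05, or as the 2 with the largest absolute log2 difference per list among those with at least 20 reads, and the gene with the smallest p was named in each comparison list. Mtrfr was not matched in the table. A gene that this rule also names is not reported here. Alternatives were another pseudocount, other filters, protein-coding genes alone, other scalings, voom on the recovered reads, a GC and length correction, the replicate block and leaving out each library. The order by windows found in no other gene was chosen after seeing the data. Replicate libraries differed by more than sampling noise (chi-square per degree of freedom 6.94 in WT and 5.28 in KO).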

Additional observations from a re-analysis of the deposited data

How the results depend on the processing

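No gene of the 10 passed an adjusted p of 0.05 in limma under any alternative run, and the smallest adjusted p with all 4 libraries was 0.289, on total reads, where the median of all genes moved to 0.48. Eef1d, Eef1g, Etf1, Gspt1 and Abce1 kept a positive difference throughout, but with the GC and length correction it was 0.085 for Etf1, 0.21 for Gspt1 and 0.53 for Abce1, against 0.43, 0.39 and 0.85, and 1.07 for Eef1d, against 0.74. The sign changed for Eef1a1 (0.44 on total reads, 0.39 after quantile normalization), Eef2 (0.51 and 0.64 in those settings, 0.15 with the GC and length trend removed), Eef1b2 (-0.12 with that trend removed) and Eef2k (0.012 with a pseudocount of 0.1, 0.38 on total reads, 0.026 after quantile normalization, 0.069 with voom, 0.13 with the trend removed). The cause was not tested. Among all genes, 12 had an adjusted p under 0.05, 0 with the other pseudocount, the other filters, protein-coding genes alone, the replicate block, total reads or the trend removed, 79 with voom and 24 with trend removal and block combined.

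With each library left out in turn, where a lone library is assumed to vary like the others, differences ran from -0.36 to 0.0036 for Eef1a1, -0.24 to 0.61 for Eef1b2, 0.58 to 0.90 for Eef1d, 0.11 to 1.31 for Eef1g, -0.14 to -0.066 for Eef2, -0.49 to 0.43 for Eef2k, 0.19 to 0.67 for Etf1, 0.26 to 0.52 for Gspt1 and 0.24 to 1.45 for Abce1. Without WT replicate 2, 2 of 9 genes had an unadjusted p under 0.05, beside 14.1% of all genes, and without the others 0 did. The log2 ratio of Gspt1 to Etf1 ran from -0.41 to 0.35 and that of Eef2k to Eef2 from -0.67 to 0.93. Fewer libraries separate more easily: the number of genes whose KO values all lay below WT ran from 1 to 4 of 9 (the 4 without WT replicate 1, beside 36.1% of all genes), and above WT from 5 to 7 (the 7 without WT replicate 2, beside 35.9%).

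The median over the 9 genes was 0.97 on total reads, 0.28 on protein-coding reads, 0.15 after the GC and length correction, and 0.11 to 0.58 with a library left out. On total reads 4 of the 9 had an unadjusted p under 0.05, beside 16.3% of all genes, 8 lay above WT in both KO libraries and 0 below, beside 41.4% and 7.87% of all genes. On protein-coding reads 3 lay above, beside 16.5%. With the trend removed 1, Eef1d, had an unadjusted p under 0.05, near the 7.33% of all genes.

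On total reads the list medians were 0.93 for elongation partners, 0.56 for diphthamide synthesis, 0.49 for termination partners, 0.42 for rescue, 0.62 for kinase inputs, 0.48 for mitochondrial factors, 1.08 for initiation factors, 1.26 for synthetases and 0.52 for ribosomal proteins. The rescue median was -0.25 on protein-coding reads and -0.082 with the trend removed, which also put diphthamide synthesis at -0.049 and termination partners at -0.053. On protein-coding reads the termination, kinase and mitochondrial medians were -0.057, -0.060 and -0.043. With a library left out the medians ran from -0.12 to 0.76 for elongation partners, -0.27 to 0.47 for diphthamide synthesis, 0.055 to 0.23 for termination partners, -0.40 to 0.086 for rescue, 0.024 to 0.27 for kinase inputs, -0.18 to 0.36 for mitochondrial factors, 0.34 to 0.70 for initiation factors, 0.35 to 0.95 for synthetases and -0.26 to 0.18 for ribosomal proteins.

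Same-numbered libraries share only a number: their deviations correlated at 0.057. With the replicate block the difference stayed 0.74 for Eef1d and 0.85 for Abce1, with 0 of 9 genes called, and with the block plus the GC and length correction Eef1b2 stood at -0.12, Eef2 at 0.15, Eef2k at 0.13 and the median at 0.15, with 1 gene at an unadjusted p under 0.05, near the 9.37% of all genes. No call on the 9 genes changed with the block.

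Depth limits Eef1a2 and Eef2k most, at 0 to 12 reads per library.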
